A study of Mus musculus with 2 samples.

Results

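General capillary endothelial cells (gCap cells) of the mouse lung are described here in a control library and in a library from lungs exposed to medium conditioned by tumors. The cells were chosen by their own UMI counts, a UMI being a molecular tag that counts 1 captured RNA molecule. A droplet was kept with at least 500 UMIs, at least 200 genes and at most 10% mitochondrial UMIs. It was taken as endothelial with at least 3 UMIs summed over Cdh5, Pecam1, Cldn5 and Egfl7 and with 0 UMIs summed over Ptprc, Epcam and Col1a2, which mark leukocytes, epithelium and fibroblasts. It was taken as a gCap cell with at least 2 UMIs summed over Gpihbp1, Plvap, Aplnr and Kit, more of these than of Car4, Ednrb and Apln, and at most 1 UMI summed over Vwf and Gja5. This left 2325 gCap cells of 15695 cells, with 1186 of 7988 in the control library (CM) and 1139 of 7707 in the tumor library (TCM). Since 16 genes chose the cells, the levels of those genes are given only as a description.

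Both libraries came from lungs of female BALB/c mice aged 9 to 10 weeks that had received injections into a vein for 3 weeks. The CM mice received control media, and the TCM mice received media conditioned by 4T1 tumors, a mouse breast cancer line that grows in this strain and spreads to its lungs. The labels name no tumor graft in these animals. The number of mice behind each library is not given in the sources used here. With 1 library per group no test between the groups was possible. Each interval below covers counting error only, at 95%, and the spread between animals is not known.

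Gas exchange in the lung takes place across a capillary bed built from 2 kinds of endothelial cell. Aerocytes are large, thin cells that lie against the air space and carry carbonic anhydrase 4 (Car4). gCap cells are smaller, line the rest of the capillary, express the lipase anchor Gpihbp1 and the receptor Kit, and act as the progenitors that renew both kinds of cell after injury. Capillary endothelium takes up fatty acids, sets vascular tone, holds clotting in check and admits leukocytes, and retinoic acid, a vitamin A derivative, is among the signals that shape lung vessels.

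The share of gCap cells among the cells kept was 14.8% in CM (exact binomial interval 14.1 to 15.6%) and likewise 14.8% in TCM (13.99 to 15.6%). Their share of all endothelial cells was 66.8% in CM (of 1776 cells, 64.5 to 69.0%) and 69.4% in TCM (of 1642 cells, 67.1 to 71.6%). The ratio of TCM to CM was 0.995 for the first share (0.917 to 1.08) and 1.04 for the second (0.957 to 1.13). Both intervals included equal shares, and they cover the counting of cells only, not the spread between animals. Aerocytes gated the same way numbered 213 in CM and 227 in TCM, and large vessel endothelial cells, with at least 2 UMIs of Vwf and Gja5, numbered 160 and 138. The gCap cells held a median of 2414 UMIs and 1351 genes in CM and of 2750 UMIs and 1511 genes in TCM. In all, 93 cell barcodes passed the filters in both libraries, beside 83.5 that unrelated draws from the same barcode set would give.

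The 4 genes that defined the gCap gate were present in most cells or in many of them. Gpihbp1 was found in 89.9% of CM and 93.0% of TCM cells, Plvap, which forms the diaphragms of endothelial pores, in 95.7% and 95.4%, Aplnr, the apelin receptor, in 37.0% and 43.9%, and Kit in 52.2% and 66.0%. The median sum of the 4 genes was 12 UMIs per cell in CM and 18 in TCM. Car4 was not absent, since the gate only asked for fewer aerocyte than gCap UMIs, and 57.8% of CM and 59.0% of TCM cells held at least 1 Car4 UMI. At the edge of the gate, 91 CM and 62 TCM cells held exactly 2 UMIs of the 4 genes. A further 82 CM and 45 TCM cells met the other conditions with 1 such UMI and were left out. Cd93 stood at 47.4 UMIs per 100000 just inside and at 52.1 just outside the gate in CM, and at 115 and 40.0 in TCM, so cells on either side of the threshold were hard to tell apart in CM.

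The label was then set against markers that the gate did not read. Levels are given as UMIs per 100000 UMIs of the summed cells. Cd93, a receptor of capillary and venous endothelium, stood at 89.2 in CM gCap cells and 122 in TCM gCap cells, against 21.9 and 30.7 in aerocytes. Sema3c, a guidance cue, stood at 80.0 and 89.5 in gCap cells against 40.9 and 37.9 in aerocytes, and Lpl, lipoprotein lipase, at 17.2 and 18.2 against 3.93 and 5.31. All 8 gCap markers outside the gate were higher in gCap cells than in aerocytes in each library. The 8 aerocyte markers had the reverse order. Fibin stood at 1.80 and 3.12 in gCap cells and at 24.5 and 27.7 in aerocytes, and Chst1, a sulfotransferase, at 1.80 and 1.63 against 24.6 and 24.9. Against large vessel cells the separation was weaker, since Cxcl12 reached 366 and 414 there and only 91.7 and 97.98 in gCap cells. The venous receptor gene Ackr1 had 0 UMIs in all 3 endothelial classes, and Vwf, which the gate capped, was at 1.75 and 1.42.

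**Figure D1:**
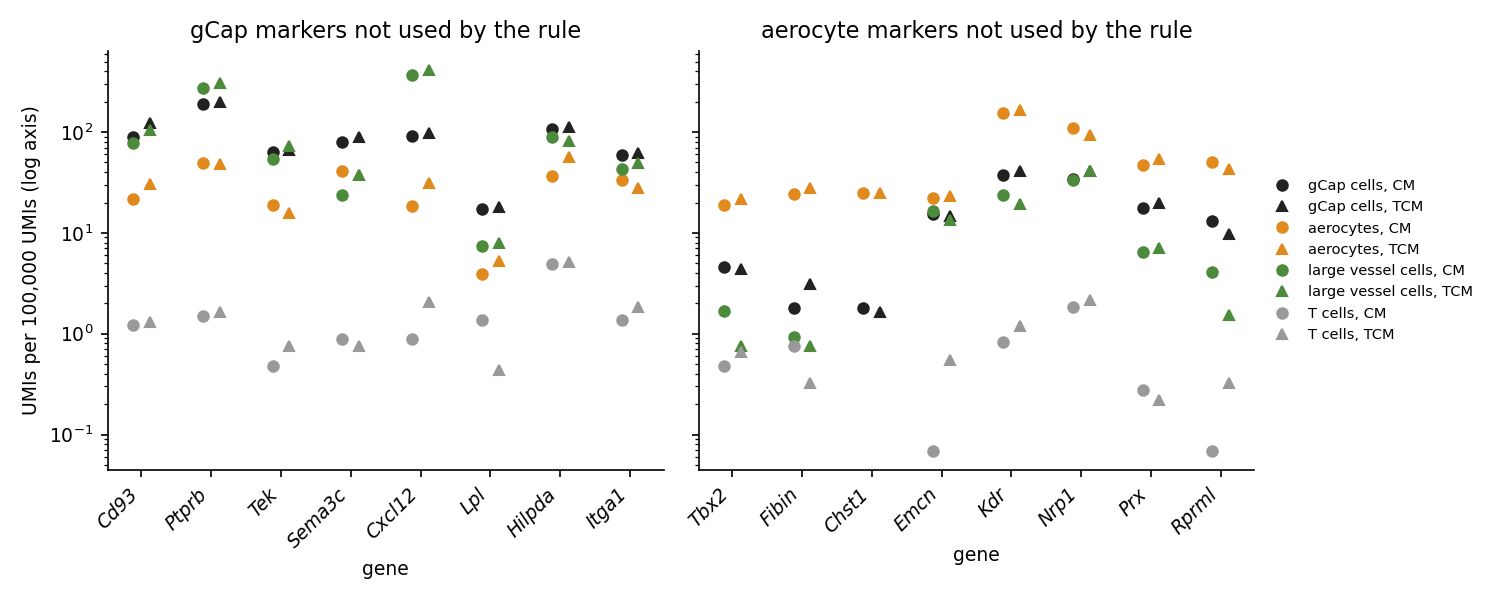
Level of 8 gCap markers and 8 aerocyte markers that the gate did not read, as UMIs per 100,000 UMIs on a log axis, in gCap cells, aerocytes, large vessel endothelial cells and T cells of the CM (circles) and TCM (triangles) libraries. Each gCap marker lies higher in gCap cells than in aerocytes and each aerocyte marker lower, while Ptprb and Cxcl12 are highest in large vessel cells. Classes with 0 UMIs, such as T cells and large vessel cells for Chst1, have no point.

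RNA of other cells was present in gCap droplets in both libraries. At least 2 UMIs of a defining marker set of another cell type were found in 303 CM gCap cells (25.5%) and 230 TCM gCap cells (20.2%). Alveolar type 1 (AT1) markers, Ager, Rtkn2 and Aqp5, were found in 143 CM and 71 TCM cells, alveolar type 2 (AT2) markers in 71 and 49, B cell markers in 41 and 5, T cell markers in 25 and 6, haemoglobins in 31 and 3, and neutrophil markers in 4 and 26. Myeloid markers were found in 50 and 61 cells, fibroblast markers in 47 and 39, and pericyte markers in 36 and 29. Lymphatic markers were found in 8 and 10 cells. The gate read no lymphatic marker, so it did not exclude lymphatic endothelium. Free RNA was read from droplets of 1 to 50 UMIs, and is set beside the levels of gCap cells where these were lower. Whether these cells were doublets was not tested.

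Over the 11252 genes with at least 20 UMIs in gCap cells of both libraries together, the median log2 ratio of TCM to CM was −0.00. A gene was counted as past 1.5-fold where the ratio was at least that large and its counting interval left out 1. By this rule 281 genes, 2.50% of those counted, were higher in TCM and 370 genes, 3.29%, were lower. These shares are the background for the counts of each gene list below. Many of these genes were as abundant or more so in free RNA. Of the genes higher in TCM, 108 lay below the level of free RNA of their own library, led by S100a9, S100a8 and Mt1, and of the genes lower in TCM 252 did, led by Sftpc, AY036118 and Cd74. S100a8 and S100a9, the calprotectin genes of neutrophils, were the clearest case. S100a8 went from 149 to 1367 UMIs in gCap cells (log2 ratio 3.06, interval 2.81 to 3.31), or from 3.94 to 32.8 UMIs per 100000, while its level in free RNA was 51.9 in CM and 264 in TCM. After each cell was thinned to 1000 UMIs, 20.6% of TCM gCap cells held an S100a8 UMI (43.1% before thinning), against 30.0% of TCM T cells (46.1% before thinning), which do not make it. The gCap share was thus not above that background. Of the genes past 1.5-fold, 158 higher and 96 lower genes were spread over cells and lay at or above free RNA in the library where they were higher, and the 24 named genes were taken from these. In the other library a named gene could lie below free RNA, as Myrip did in CM and Ccn1, Slc9a9, AA986860 and Pde4a did in TCM. Without the cells that held markers of other types, only 22 of the 24 named genes kept enough UMIs for a ratio.

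**Figure D2:**
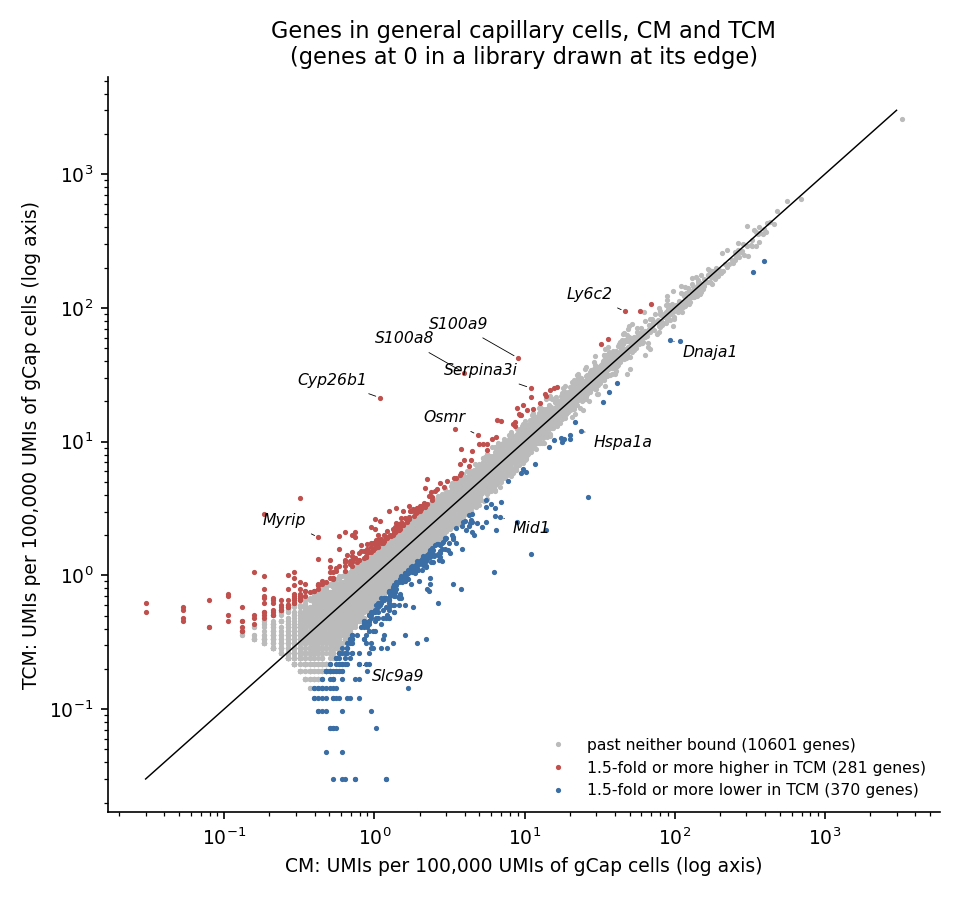
Level of each of the 11252 counted genes in gCap cells of the CM library (horizontal) and the TCM library (vertical), as UMIs per 100,000 UMIs on log axes, with the line of equal levels. Of these, 281 genes (red) were past 1.5-fold higher and 370 (blue) past 1.5-fold lower in TCM, and Cyp26b1 goes from 1.09 to 21.3. S100a8 and S100a9 lay below the level of free RNA, and genes at 0 in a library are drawn at its edge.

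Cyp26b1 showed the widest gap of the named genes. It encodes a cytochrome P450 that breaks down retinoic acid and lies on chromosome 6 from 84571414 to 84593908 on the minus strand (GRCm38). In CM, 32 gCap cells held 41 UMIs of it (exact Poisson interval 29.4 to 55.6), and in TCM 370 cells held 887 UMIs (830 to 947). Its level went from 1.09 to 21.3 UMIs per 100000, a 19.6-fold difference (log2 ratio 4.30, 3.84 to 4.78). Free RNA held 0.287 in CM and 6.03 in TCM, so the TCM gCap level stood above it. With each cell thinned to 1000 UMIs, 0.605% of CM cells (interval 0.222 to 1.31%) and 16.6% of TCM cells (14.3 to 19.1%) held a UMI, against 0% and 0.958% of T cells. The unthinned shares were 2.70% and 32.5% in gCap cells and 0% and 1.82% in T cells, and the median depths of the T cells were 2353 and 2429 UMIs. Aerocytes had 1 UMI in CM and 26 in TCM (4.25, 1.65 to 9.61), but their TCM level of 2.88 UMIs per 100000 lay below that of free RNA. Large vessel cells went from 50 to 174 UMIs (1.83, 1.37 to 2.32). Their level was 9.29 UMIs per 100000 in CM and 33.1 in TCM, above that of gCap cells in both libraries. After thinning, 7.24% of CM and 24.4% of TCM large vessel cells held a UMI. The interval of the ratio in gCap cells did not overlap that in large vessel cells.

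The bases before the Cyp26b1 start are shown because this gene had the largest ratio of the named genes. They come from RefSeq (GRCm38.p6, chr6:84593909-84594060, minus strand, 5′ to 3′) and end before the first annotated exon.
Cyp26b1: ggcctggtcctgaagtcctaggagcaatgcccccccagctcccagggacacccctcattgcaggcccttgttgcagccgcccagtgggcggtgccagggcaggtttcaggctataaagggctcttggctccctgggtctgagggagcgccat
A retinoic acid response element, read as AGTTCA or AGGTCA repeated in the same direction with 5 bases between the copies and searched on both strands, had no match in the 250 bases before this start, which says only that these letters are not in that window. It was found in 1 of the 14 genes of the retinoic acid list with an entry, Cyp26a1, and in 0.037% of all 27025 gene symbols in the table.

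The rest of the retinoic acid pathway did not share this gap. Of the 18 genes of the list 9 reached 20 UMIs, and Cyp26b1 was the only one past 1.5-fold. The list had a median log2 ratio of 0.04. Dhrs3, which reduces retinal to retinol, had 175 and 246 UMIs (0.35, 0.07 to 0.64). Aldh1a1, which makes retinoic acid, had 86 and 99 UMIs (0.06, −0.37 to 0.50) at a level of 2.28 and 2.38, below its free RNA level of 10.3 and 8.58. The receptor genes stood close to 0, with Rara at 347 and 338 UMIs (−0.18, −0.40 to 0.04), Rarg at 208 and 235 (0.04, −0.24 to 0.31) and Rxra at 117 and 103 (−0.32, −0.72 to 0.07). Rxrb had 106 and 129 UMIs (0.14, −0.24 to 0.53).

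Genes of cytokine sensing and the acute phase were among the other 11 genes named as higher. Osmr, the receptor subunit for oncostatin M, had 184 UMIs in 149 CM cells and 467 UMIs in 324 TCM cells (1.20, 0.95 to 1.46). After thinning, 5.54% of CM and 12.2% of TCM gCap cells held an Osmr UMI, against 0% and 0.319% of T cells, and before thinning 12.6% and 28.4% of gCap cells did. Serpina3i, a serine protease inhibitor of the acute phase family, had 415 and 1047 UMIs (1.20, 1.03 to 1.36) in 224 and 468 cells. It was also higher in aerocytes (0.95, 0.56 to 1.36) and in large vessel cells (2.11, 1.601 to 2.64). The Serpina3 genes of the mouse are near copies of each other, so reads may have been split between them. Ly6c2, a small surface protein, went from 1761 to 3909 UMIs (1.01, 0.93 to 1.09), or from 46.6 to 93.9 UMIs per 100000 beside a free RNA level of 16.5 and 21.8. Its close paralog Ly6c1 had 6279 and 8065 UMIs (0.22, 0.17 to 0.27), and reads of the pair may be confused. After thinning, Ly6c2 was found in 32.4% of CM and 52.2% of TCM gCap cells and in 7.27% and 5.75% of T cells, and unthinned in 55.8% and 72.8% of gCap cells.

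Several of the higher genes act at the cell surface or in the matrix. Sema7a, a membrane-anchored semaphorin that binds integrins, had 262 and 597 UMIs (1.05, 0.84 to 1.26). Adamts9, a secreted protease that cleaves versican, had 334 and 737 UMIs (1.002, 0.81 to 1.19). St3gal1, a sialyltransferase, had 248 and 608 UMIs (1.15, 0.94 to 1.37). These 3 genes were each found in at least 351 TCM gCap cells. St3gal1 had a ratio near 0 in aerocytes (0.16, −0.22 to 0.54) and a positive one in large vessel cells (1.62, 0.91 to 2.39). Fkbp14, a prolyl isomerase of the endoplasmic reticulum that acts on collagen, had 47 and 126 UMIs (1.28, 0.79 to 1.80).

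The remaining higher genes had few UMIs. Myrip, which ties secretory granules to myosin, had 16 UMIs in CM and 80 in TCM (2.18, 1.40 to 3.06). Ttc39c had 24 and 88 UMIs (1.73, 1.07 to 2.45), the kinase gene Map3k6 28 and 87 (1.496, 0.87 to 2.17) and Kazn 85 and 219 (1.23, 0.86 to 1.604). Each was found in at least 74 TCM gCap cells, and no more than 26.1% of its TCM UMIs lay in its 10 richest cells. Of the 12 higher genes 11 had a ratio above 0 in aerocytes and 12 in large vessel cells. In aerocytes 6 of the 12 were past 1.5-fold, Cyp26b1 among them, beside 2.24% of all 7682 genes counted there, and in large vessel cells 8 were, beside 4.43% of 6705. Of all 158 higher genes that met the same conditions, 15 of the 90 counted in aerocytes and 39 of the 83 counted in large vessel cells were past 1.5-fold in the same direction.

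**Figure D3:**
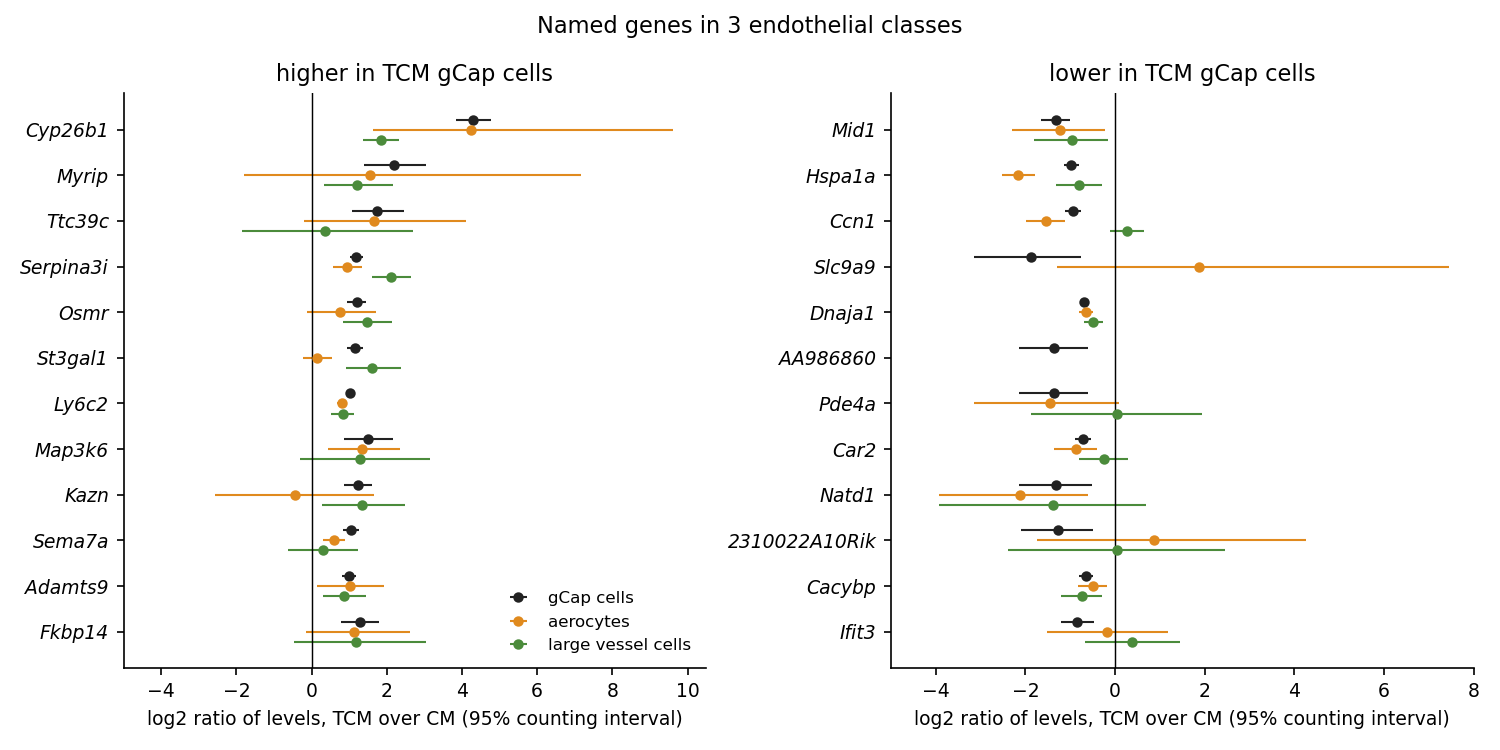
Log2 ratio of TCM to CM with its 95% counting interval for the 12 genes named as higher (left) and the 12 named as lower (right), in gCap cells (black), aerocytes (orange) and large vessel endothelial cells (green). Cyp26b1 lies at 4.30 in gCap cells and 1.83 in large vessel cells, and Hspa1a at −0.97 in gCap cells and −2.16 in aerocytes. A gene with under 20 UMIs in a class has a wide interval or no point.

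Of the 12 genes named as lower, the chaperone genes Dnaja1 and Hspa1a had the most UMIs in CM. Dnaja1, a co-chaperone of heat-shock protein 70, had 3503 UMIs in 917 CM cells and 2387 UMIs in 799 TCM cells (−0.69, −0.77 to −0.62). Hspa1a, the inducible heat-shock protein 70, had 893 UMIs in 345 cells and 501 UMIs in 183 cells (−0.97, −1.13 to −0.81). Its near-identical neighbour Hspa1b had 180 and 171 UMIs (−0.21, −0.52 to 0.10), and the 2 genes share much of their sequence. After thinning, Hspa1a was found in 15.0% of CM and 6.88% of TCM gCap cells, and in 7.27% and 6.39% of T cells. Before thinning the gCap shares were 29.1% and 16.1%. The TCM share was thus close to that of T cells. Free RNA held 10.9 Hspa1a UMIs per 100000 in CM and 7.42 in TCM, beside 23.6 and 12.04 in gCap cells, so it was lower in free RNA as well.

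All 11 heat-shock genes of the list had a ratio below 0, with a median of −0.41. Of them 2, Hspa1a and Dnaja1, were lower past 1.5-fold, beside 3.29% of all genes counted. Hsph1, a nucleotide exchange factor, had 211 and 155 UMIs (−0.58, −0.89 to −0.28) and Hsp90aa1, the inducible heat-shock protein 90, 2404 and 1848 (−0.52, −0.61 to −0.43). Hspb1, a small heat-shock protein, had 2587 and 2056 UMIs (−0.47, −0.56 to −0.39). The constitutive Hspa8 and Hsp90ab1 had 11544 and 10152 UMIs (−0.33, −0.36 to −0.29) and 13225 and 12062 UMIs (−0.27, −0.31 to −0.24). Hsph1 lay below free RNA in both libraries, and Hsp90aa1 did in TCM. Some of these genes were also found in fewer T cells of the TCM library. The share of thinned T cells with Hspa8 was 81.9% in CM and 73.2% in TCM (89.0% and 80.7% before thinning), and that with Hsp90ab1 was 83.3% and 73.5% (89.9% and 84.1%). For Hspd1 it was 18.3% and 12.1% (34.4% and 23.7%), and for Dnajb1 12.1% and 7.67% (23.7% and 20.3%). In aerocytes the median of the list was −0.66 with 7 of 11 genes lower past 1.5-fold, beside 3.10% of all genes counted there. In large vessel cells it was −0.26 with 1 of 11, beside 3.27%. Cacybp, a ubiquitin ligase adaptor that binds heat-shock protein 90 partners, was named as lower too, at 819 and 579 UMIs (−0.64, −0.80 to −0.48).

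Heat-shock promoters are shown because the list lay on 1 side of 0 as a whole. Capitals mark the paired heat-shock element GAANNTTC, which reads the same on both strands. Both sequences are from RefSeq (GRCm38.p6), 5′ to 3′, for Hspa1a from chr17:34972157-34972276 on the minus strand and for Hspb1 from chr5:135887779-135887918 on the plus strand, each ending at the base before the start.
Hspa1a: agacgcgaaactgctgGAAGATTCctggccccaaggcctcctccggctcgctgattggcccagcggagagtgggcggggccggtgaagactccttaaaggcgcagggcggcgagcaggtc
Hspb1: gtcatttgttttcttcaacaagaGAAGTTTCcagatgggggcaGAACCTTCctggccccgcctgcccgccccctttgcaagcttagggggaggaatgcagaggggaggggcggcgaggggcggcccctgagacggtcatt
Of the 11 genes 8 had an entry, and 7 of these held GAANNTTC or TTCNNGAA in the 250 bases before at least 1 of their starts, as did 14.6% of all 27025 gene symbols in the table.

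The other genes named as lower had mixed roles. Mid1, a ubiquitin ligase bound to microtubules, had 259 UMIs in 215 CM cells and 114 UMIs in 100 TCM cells (−1.32, −1.65 to −1.001). The gap was not limited to endothelium, since 9.03% of CM and 1.92% of TCM T cells held a Mid1 UMI after thinning (17.9% and 7.55% before), beside 6.45% and 3.04% of gCap cells (18.1% and 8.78% before). Ccn1, a matricellular protein induced by stretch and growth factors, had 757 UMIs in 260 cells and 434 UMIs in 196 cells (−0.94, −1.12 to −0.77). Its level was 20.04 UMIs per 100000 in CM beside 16.8 in free RNA, and 10.4 in TCM beside 16.01. In aerocytes Ccn1 was lower as well (−1.54, −1.98 to −1.12), whereas in large vessel cells its interval held 0 (0.26, −0.12 to 0.64). Car2, a cytosolic carbonic anhydrase, had 662 and 446 UMIs (−0.71, −0.89 to −0.53). Pde4a, which breaks down cyclic AMP, had 51 and 22 UMIs (−1.35, −2.15 to −0.61). Its TCM level of 0.529 UMIs per 100000 lay below the 0.696 of free RNA. Slc9a9, an endosomal sodium and proton exchanger, had 30 and 9 UMIs (−1.88, −3.14 to −0.77), but −0.39 with the gate applied after thinning. After thinning, 2.64% of CM and 3.51% of TCM T cells held a Slc9a9 UMI, beside 1.11% and 0.101% of gCap cells. Before thinning the shares were 7.48% and 9.9% of T cells and 2.11% and 0.702% of gCap cells. AA986860, Natd1 and 2310022A10Rik had 45 to 51 UMIs in CM and 20 to 22 in TCM. Of the 12 lower genes 9 of the 11 with a value had a ratio below 0 in aerocytes, and 6 of 10 in large vessel cells. In aerocytes 6 of them were lower past 1.5-fold, beside 3.10% of all genes counted there, and in large vessel cells 3 were, beside 3.27%. Of all 96 lower genes that met the conditions, 8 of the 39 counted in aerocytes and 5 of the 20 counted in large vessel cells were.

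**Figure D4:**
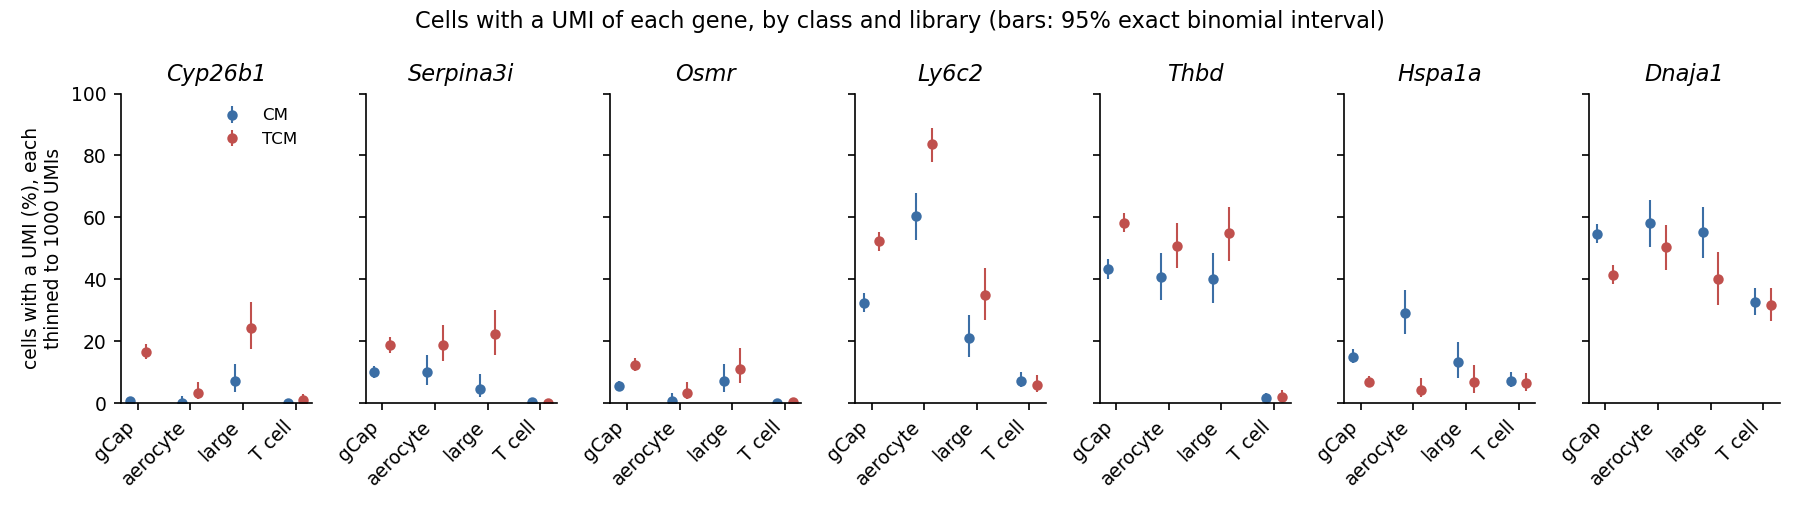
Share of cells with at least 1 UMI of each gene, in percent, after each cell was thinned to 1000 UMIs, for gCap cells, aerocytes, large vessel endothelial cells and T cells of the CM (blue) and TCM (red) libraries, with 95% exact binomial intervals. Cyp26b1 goes from 0.605% to 16.6% of gCap cells and stays under 1% of T cells, while for Hspa1a and Dnaja1 the shares of gCap cells are lower in TCM and those of T cells overlap in their intervals.

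Interferon-stimulated genes lay mostly below 0. Of the 20 genes of the list 18 had a negative ratio, and the median was −0.23. Past 1.5-fold 5 were lower, beside 3.29% of all genes counted. Of the 5, Ifit2 and Ifi27l2a lay below free RNA in both libraries and Rsad2 in TCM. Ifit3, an RNA-binding antiviral protein, had 169 and 104 UMIs (−0.84, −1.21 to −0.48) in 114 and 72 cells, and Ifit1 had 356 and 244 (−0.68, −0.93 to −0.45). Ifit2 had 40 and 22 UMIs (−1.002, −1.82 to −0.22), and Rsad2 had 30 and 5 (−2.72, −4.45 to −1.34). Ifi27l2a had 208 and 105 UMIs (−1.13, −1.48 to −0.78), at 5.51 and 2.52 UMIs per 100000, far under its free RNA level of 24.1 and 23.7. The genes with the most UMIs moved less. Ifitm3, which blocks viral entry, had 13662 and 16781 UMIs (0.16, 0.12 to 0.19), Irf1 2333 and 2602 (0.02, −0.06 to 0.10) and Bst2 1821 and 1833 (−0.13, −0.22 to −0.04). Without the cells that held markers of other types, Ifit3 stood at −0.46 and Ifi27l2a at −0.00, and neither was past 1.5-fold. In large vessel cells the median of the same list was 0.36. Of 17 genes 4 were higher and 0 lower past 1.5-fold, beside 4.43% and 3.27% of all genes counted there. In aerocytes the median was −0.18, with 0 higher and 4 lower, beside 2.24% and 3.10%.

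The promoters of 3 of the lower genes are shown with the interferon-stimulated response element core in capitals. The core was read as GAAA repeated with 2 bases between the copies, on either strand, and appears here as its reverse complement, TTTC repeated. The sequences are from RefSeq (GRCm38.p6), 5′ to 3′, at chr19:34640769-34640870 on the plus strand for Ifit1, chr19:34583359-34583528 on the plus strand for Ifit3 and chr12:26456453-26456602 on the minus strand for Rsad2.
Ifit1: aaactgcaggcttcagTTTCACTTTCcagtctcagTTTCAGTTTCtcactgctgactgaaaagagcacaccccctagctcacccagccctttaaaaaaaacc
Ifit3: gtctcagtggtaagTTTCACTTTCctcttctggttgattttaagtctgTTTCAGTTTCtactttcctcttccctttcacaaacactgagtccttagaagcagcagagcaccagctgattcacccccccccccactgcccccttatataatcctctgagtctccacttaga
Rsad2: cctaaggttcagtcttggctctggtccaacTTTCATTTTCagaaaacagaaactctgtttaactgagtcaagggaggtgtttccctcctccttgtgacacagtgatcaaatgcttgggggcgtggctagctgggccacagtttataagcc
Of the 20 genes 16 had an entry and 10 of these held the core in the 250 bases before at least 1 of their starts, as did 3.46% of all 27025 gene symbols. Of the other genes lower past 1.5-fold, Ifit2 had 2 starts and no match, and Ifi27l2a had no entry.

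Among 14 genes of antigen presentation 0 were higher and 3 lower past 1.5-fold, beside 2.50% and 3.29% of all genes counted. The median was −0.17. The class I genes H2-K1 (8226 and 8779 UMIs, −0.05, −0.09 to −0.00), H2-D1 (12248 and 12338 UMIs, −0.13, −0.17 to −0.09) and B2m (5107 and 5046 UMIs, −0.16, −0.21 to −0.10) stayed under 1.5-fold. The class II genes H2-Aa (1259 and 828 UMIs, −0.74, −0.87 to −0.62) and H2-Eb1 (761 and 463 UMIs, −0.86, −1.03 to −0.69) and the invariant chain Cd74 (4090 and 2344 UMIs, −0.94, −1.02 to −0.87) were lower. The class II gene H2-Ab1 (1814 and 1336 UMIs, −0.58, −0.68 to −0.48) and the class II regulator Ciita (41 and 28 UMIs, −0.69, −1.44 to 0.04) were not past it by the rule. H2-Aa, H2-Eb1 and Cd74 lay below their free RNA levels in both libraries. For H2-Aa the gCap level was 33.3 and 19.9 UMIs per 100000 beside 82.5 and 80.0 in free RNA. B cell markers moved with them, with 7 of 8 lower past 1.5-fold and a summed level of 11.2 in CM and 3.10 in TCM gCap cells. Without the cells that held markers of other types, H2-Aa stood at −0.45 and was no longer past 1.5-fold, H2-Eb1 at −0.74 and Cd74 at −0.63. The part of antigen-presenting cells in these ratios was not tested beyond this.

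Among the genes of vascular tone and haemostasis, 2 of 21 were higher and 1 lower past 1.5-fold, beside 2.50% and 3.29% overall. The median was 0.03. Thbd, thrombomodulin, which turns thrombin into an anticoagulant enzyme, went from 2213 UMIs in 788 CM cells to 3955 UMIs in 918 TCM cells (0.70, 0.62 to 0.77). Its level was 58.6 and 95.03 UMIs per 100000, beside 15.4 and 19.7 in free RNA. It was found in 43.3% and 58.2% of thinned gCap cells and in 1.54% and 1.92% of thinned T cells, and in 66.4% and 80.6% of gCap cells before thinning. Aerocytes (0.42, 0.23 to 0.60) and large vessel cells (0.59, 0.37 to 0.80) also had positive ratios. The endothelial protein C receptor gene Procr, which works beside thrombomodulin, had 51 and 25 UMIs (−1.17, −1.92 to −0.45), but −0.42 without the cells that held markers of other types. F8, clotting factor VIII, had 8 UMIs in CM and 27 in TCM (1.61, 0.44 to 2.96), and 10 cells held 88.9% of the latter. The shear-induced regulators Klf2 (6390 and 7306 UMIs, 0.05, 0.00 to 0.10) and Klf4 (2632 and 2959 UMIs, 0.03, −0.05 to 0.11) had ratios near 0, as did the adrenomedullin co-receptor Ramp2 (18034 and 22134 UMIs, 0.16, 0.13 to 0.18). Edn1, endothelin 1, had 756 and 1059 UMIs (0.35, 0.21 to 0.48), Calcrl 4145 and 6089 (0.41, 0.36 to 0.47) and Ace, angiotensin-converting enzyme, 4411 and 5911 (0.28, 0.23 to 0.34).

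The glucocorticoid-responsive genes had 4 of 12 genes higher and 0 lower past 1.5-fold, beside 2.50% and 3.29% of all genes counted. Their median was 0.18. Zbtb16, a transcription factor gene, had 419 UMIs in 296 CM cells and 892 UMIs in 490 TCM cells (0.95, 0.78 to 1.12), above its free RNA level of 2.87 and 9.28 at 11.1 and 21.4 UMIs per 100000. It was also higher in aerocytes (0.99, 0.51 to 1.48) and large vessel cells (1.23, 0.69 to 1.79). Fkbp5, a chaperone of the glucocorticoid receptor, had 27 and 83 UMIs (1.48, 0.84 to 2.16), in 25 and 74 cells, and lay below its free RNA level of 1.72 and 3.02. The metallothioneins Mt1 (518 and 943 UMIs, 0.72, 0.57 to 0.88) and Mt2 (37 and 64 UMIs, 0.65, 0.04 to 1.28) lay far below theirs, and 51.2% of the TCM UMIs of Mt1 came from 10 cells. Other targets did not share the direction, with Tsc22d3 at 950 and 920 UMIs (−0.19, −0.32 to −0.05), Per1 at 243 and 260 (−0.04, −0.30 to 0.22) and the receptor gene Nr3c1 at 823 and 820 (−0.15, −0.29 to −0.00).

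The lists that describe the usual work of a capillary cell changed little. Of all genes counted 2.50% were higher and 3.29% lower past 1.5-fold, the background for each list in this paragraph. Of the 18 counted genes of lipid uptake, Meox2 alone was lower past 1.5-fold (17 and 7 UMIs, below free RNA), 0 were higher, and the median was 0.05. Cd36, the fatty acid translocase, had 5370 and 6524 UMIs (0.14, 0.09 to 0.19) and was found in 73.9% and 75.5% of thinned gCap cells, against 2.42% and 3.19% of T cells. Before thinning it was found in 88.3% and 90.5% of gCap cells. Lpl had 651 and 759 UMIs (0.08, −0.07 to 0.23), and Scarb1, the high-density lipoprotein receptor, had 703 and 1080 (0.48, 0.34 to 0.62). None of the 20 genes of VEGF, angiopoietin and Notch signalling, none of the 11 counted junction genes and none of the 9 leukocyte adhesion genes was past 1.5-fold, and their medians were 0.11, 0.17 and 0.15. Flt1, a decoy VEGF receptor, had 2110 and 2951 UMIs (0.34, 0.26 to 0.43) and Kdr, the main one, 1419 and 1708 (0.13, 0.03 to 0.23). Icam1 had 1895 and 2298 UMIs (0.14, 0.05 to 0.23) and Vcam1 39 and 48 (0.16, −0.48 to 0.81), below its free RNA level. Of 15 BMP and TGF-beta genes Bmp4 alone was lower (81 and 52 UMIs, −0.78, −1.31 to −0.26), below free RNA in both libraries, and the median was 0.02.

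Inflammatory signalling gave a mixed picture. The background for each list here is again 2.50% of all genes counted as higher and 3.29% as lower. Of 15 NF-kB genes 0 were higher and 1 was lower past 1.5-fold, Nfkbie (41 and 25 UMIs, below free RNA), and the median was 0.05. Nfkbia, the feedback inhibitor, had 4966 and 6029 UMIs (0.14, 0.09 to 0.19), Ier3 7789 and 10657 (0.31, 0.27 to 0.35) and Bcl3 305 and 492 (0.55, 0.34 to 0.76). Among 12 chemokines and cytokines Ccl2 was higher (40 and 83 UMIs), but 97.6% of its TCM UMIs lay in 10 cells, and the ratio changed sign without the cells that held markers of other types. Cxcl10, an interferon-induced attractant of T cells, was lower (127 and 78 UMIs, −0.84, −1.27 to −0.43), and Ccl7 was lower too (23 and 7 UMIs). Ccl2 and Ccl7 lay below free RNA in both libraries. Cxcl12 had 3465 and 4078 UMIs (0.10, 0.03 to 0.16). The 12 immediate early genes had a median of −0.05 with 0 past 1.5-fold, and Fos (3748 and 3430 UMIs, −0.27, −0.34 to −0.20) and Atf3 (3685 and 3057 UMIs, −0.41, −0.48 to −0.34) had ratios below 0.

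Few gCap cells expressed genes of cell division. Top2a had 8 UMIs in 8 CM cells and 23 UMIs in 9 TCM cells, and Cdk1 had 2 UMIs in 2 cells and 19 UMIs in 6 cells. Both were higher past 1.5-fold, 2 of the 6 counted genes of the list, beside 2.50% of all genes counted. Top2a lay below its level in free RNA, while Pcna, a replication clamp, had 238 and 283 UMIs (0.11, −0.14 to 0.36). Of the 12 genes of a sprouting or regenerating state Igfbp3 alone was past 1.5-fold (44 and 83 UMIs, 0.78, 0.23 to 1.34), beside 2.50% of all genes counted as higher. In TCM 10 cells held 65.1% of the Igfbp3 UMIs. Its level lay below free RNA in both libraries. The tip cell gene Esm1 had 227 and 288 UMIs (0.20, −0.05 to 0.46). The basement membrane collagens Col4a1 (1873 and 3036 UMIs, 0.56, 0.47 to 0.64) and Col4a2 (1350 and 2115 UMIs, 0.51, 0.41 to 0.61) had ratios just under 1.5-fold.

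**Figure D5:**
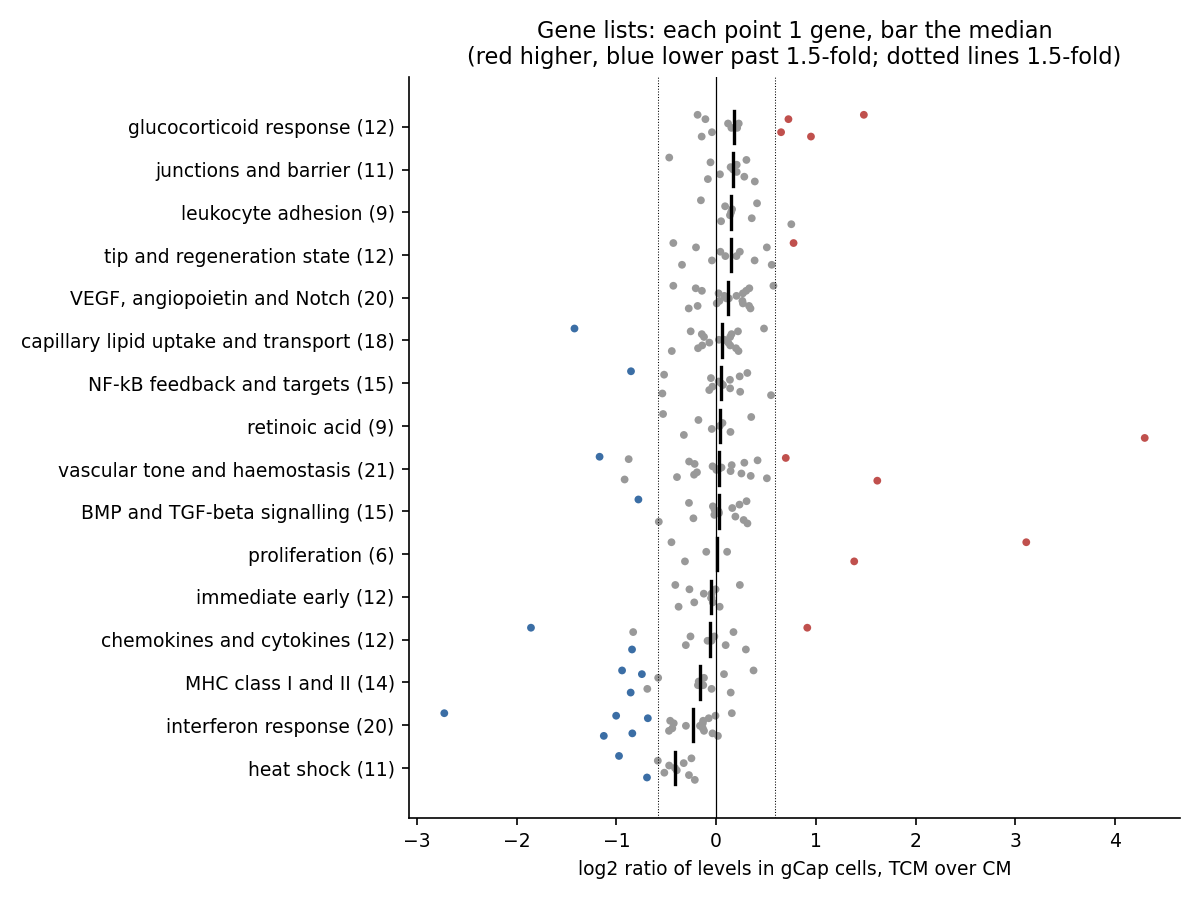
Log2 ratio of TCM to CM in gCap cells for each counted gene of 16 lists, with the number of counted genes in brackets, the median of each list as a black bar and 1.5-fold as dotted lines. Heat shock (median −0.41) and interferon response (−0.23) lie lowest, and Cyp26b1 at 4.30 is the point farthest to the right, in a retinoic acid list whose median is 0.04. Red and blue points passed 1.5-fold with a counting interval that left out 1.

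Cells within the gate differed among themselves beyond counting noise in a limited set of genes. The Fano factor, the variance over the mean of UMIs per cell, was taken on cells thinned to 1000 UMIs for the 1687 genes with a mean above 0.1 in both libraries, and its median was 1.05 in CM and 1.06 in TCM. Several of the highest were genes of other cells, such as Sftpc (64.9 and 35.7), a surfactant gene of AT2 cells, S100a9 (10.7 and 11.6) and Ager (5.62 and 10.1). Among genes that endothelium makes, Ier3 (8.27 and 10.2), Fos (4.31 and 3.75), Junb (3.86 and 3.65), Cxcl12 (3.95 and 3.42), Egr1 (3.36 and 3.31) and Atf3 (3.60 and 2.86) were high in both libraries. An Ier3 UMI was found in 456 of 992 thinned CM cells and in 476 of 988 thinned TCM cells, and a Cxcl12 UMI in 402 and 462 cells.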

How the data were processed

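Whole-transcriptome 5′ single-cell libraries were made from 1 CM and 1 TCM lung sample. The deposited files hold counts of UMIs per gene and droplet for 32286 features, written by Cell Ranger (the file headers name version 4) on mm10 (GRCm38.p6), with empty droplets still present; the authors later used Seurat. CM held 31944151 UMIs and TCM 36648719, and the kept cells had median depths of 2085 and 2346.

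Cells were gated on raw UMIs, and no doublet caller was run beyond the exclusion of Ptprc, Epcam and Col1a2. UMIs were summed per library and scaled to 100000. Intervals were exact Poisson (sums), Clopper-Pearson (shares) and conditional binomial (ratios), and cover counting error only, with 1 library per group and no test. Sums of 0 were set to 3 counts for a bound. The 16 gate genes were left out of the counts. Named genes were the 12 highest and 12 lowest by the interval bound nearest 0, with, in the library where the gene was higher, UMIs in at least 10 cells, at most 50% of them in 10 cells, and a level at or above free RNA (droplets of 1 to 50 UMIs). The other library was not filtered. The members and lists were chosen with earlier results of these data known. Thinning used seed 11. T cells for comparison were gated on their own markers. Of the identifiers 32235 matched GENCODE vM21, and 38 symbols had more than 1 identifier. Python 3.11.15, numpy 2.4.6, scipy 1.17.1 and pandas 2.3.3 were used, and the ratio intervals were tested on simulated data. Alternatives covered the gate, depth, scaling, free RNA and count minimums.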

Additional observations from a re-analysis of the deposited data

Results flagged for a closer look

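Among the named genes and the genes of the pathway lists, Mt1 and Ccl2 passed 1.5-fold in opposite directions in gCap cells and aerocytes, and the difference itself was not tested, with 1 library per group. Mt1, a metallothionein, had 518 UMIs in CM and 943 in TCM gCap cells (log2 ratio 0.72, 0.57 to 0.88) and 196 and 128 UMIs in aerocytes (−1.06, −1.40 to −0.73). Both of its levels in both classes lay below its level in free RNA. Ccl2, a chemokine that draws monocytes, had 40 and 83 UMIs in gCap cells (0.91, 0.35 to 1.495), and 20 UMIs in CM and 0 in TCM aerocytes.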

How the results depend on the processing

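The share of gCap cells changed little under 5 alternatives to the gate, and under an added one, chosen after seeing the data, that left out cells with markers of other types. The counts of higher and lower genes stayed within 1.5 times of 281 and 370 under most of 12 alternatives. With free RNA subtracted (152 UMIs per cell in CM and 262 in TCM, 4.77% and 7.16% of UMIs) 651 genes were lower, without cells with markers of other types 182 were, and with a minimum of 50 UMIs 245 were. With 2-fold as the threshold, 118 were higher and 194 lower, by construction. Ccl2 turned to −0.83 with the gate applied after thinning to 1000 UMIs and to −0.54 without cells with markers of other types, and Igfbp3 turned to −0.35 with cells thinned to 1000 UMIs, and the cause was not tested. Of the 24 named genes, all remained past 1.5-fold with free RNA subtracted. The only changes of call among them under the other alternatives were losses. These were 3 genes with the gate after thinning, 5 with cells thinned, and Ifit3 without cells with markers of other types. In that last setting 2 more named genes held at most 3 UMIs in each library. Nearly all UMIs of these 2 genes thus lay in the cells left out. The 2 genes were given no ratio there and were no longer past 1.5-fold. Of 23 other called members of the lists fewer kept their call, with 9 of the 21 that had a value with cells thinned, 11 of 22 with the gate after thinning, 11 of 22 without cells with markers of other types and 15 of 23 without the 5% deepest gCap cells. Slc9a9, with 30 UMIs in CM, ranged from −0.39 to −3.86. No paired analysis was possible because each group has 1 library, and no library could be left out. Depth limits the rarer genes, whose intervals are wide, as for Slc9a9 at −3.14 to −0.77.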

Other observations

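The lists in this section were drawn up after the values were seen, so their counts describe the genes and support nothing further. Of the signalling genes of the interleukin 6 family, Osmr, Il6st and Stat3 were higher past 1.5-fold in TCM gCap cells, and Il6ra, Lifr, Jak1 and Socs3 were not. The shared receptor chain Il6st had 479 and 812 UMIs (log2 ratio 0.62, interval 0.46 to 0.79), the transcription factor Stat3 523 and 911 (0.66, 0.50 to 0.82), Lifr 383 and 594 (0.49, 0.31 to 0.68) and the feedback inhibitor Socs3 1474 and 1985 (0.29, 0.19 to 0.39). Il6ra had 30 and 28 UMIs (−0.24, −1.04 to 0.55), below free RNA in both libraries. Jak1 had 924 and 974 UMIs (−0.06, −0.20 to 0.07), below free RNA in CM. Serpina3g had 229 and 434 UMIs (0.78, 0.55 to 1.02) and Serpina3f 196 and 257 (0.25, −0.02 to 0.53). Lrg1, a glycoprotein of the acute phase, had 131 and 519 UMIs (1.85, 1.57 to 2.13), but neutrophils make it and free RNA held 39.4 UMIs per 100000 in TCM, above its gCap level of 12.5. Serpina3n, with 13 and 32 UMIs (1.16, 0.19 to 2.21), stood at 0.77 UMIs per 100000 in TCM beside 0.93 in free RNA. Of 15 counted genes of this set 7 were higher past 1.5-fold, Lrg1 and Serpina3n among them, beside 2.50% of all genes counted, 0 were lower and 13 lay above 0, and the median was 0.55. In large vessel cells Il6st (1.003, 0.70 to 1.32), Bcl3 (1.21, 0.62 to 1.83) and Serpina3g (1.17, 0.83 to 1.52) were higher, whereas in aerocytes Il6st (0.10, −0.42 to 0.63) and Stat3 (0.15, −0.27 to 0.57) had intervals that held 0, and Socs3 was lower (−0.75, −1.08 to −0.42).

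Of 9 counted genes that handle prostaglandins and adenosine, 3 were higher and 0 lower past 1.5-fold, beside 2.50% and 3.29% of all genes counted. Above 0 lay 6 of them. The prostaglandin transporter Slco2a1 had 2355 and 3870 UMIs (0.58, 0.50 to 0.65), just under 1.5-fold, and the prostaglandin dehydrogenase Hpgd 5374 and 6171 (0.06, 0.01 to 0.11). Entpd1, which removes phosphates from ATP, had 430 and 730 UMIs (0.62, 0.45 to 0.80), Cd38, which consumes NAD, 214 and 399 (0.76, 0.52 to 1.01) and Ada, adenosine deaminase, 53 and 132 (1.18, 0.71 to 1.66). Ptgis, prostacyclin synthase, had 117 and 111 UMIs (−0.22, −0.60 to 0.17), the adenosine receptor gene Adora2a 44 and 42 (−0.21, −0.85 to 0.44) and Nt5e 14 and 9, and the levels of Ptgis and Nt5e lay below free RNA in both libraries. Of 13 counted matrix genes 3 were higher and 0 lower past 1.5-fold, beside the same shares of all genes, and the median was 0.25. Among them Mfap2, a microfibril protein, had 1353 and 2428 UMIs (0.70, 0.61 to 0.80) and Cemip2, a hyaluronidase, 1223 and 2243 (0.74, 0.63 to 0.84), while Sparc had 6627 and 7839 (0.10, 0.05 to 0.15) and Nid1 369 and 420 (0.05, −0.16 to 0.25). Of 11 counted genes of the semaphorin and plexin list 3 were higher and 0 lower past 1.5-fold, beside 2.50% and 3.29%, and the median was 0.19. Sema6b had 41 and 106 UMIs (1.23, 0.70 to 1.79) and Plxna2 141 and 236 (0.60, 0.30 to 0.91). Sema3c had 3023 and 3724 (0.16, 0.09 to 0.23) and Plxnd1 325 and 308 (−0.22, −0.45 to 0.01). Ly6a, the stem cell antigen Sca-1, had 11412 and 17051 UMIs (0.44, 0.41 to 0.47) and Ly6e 9471 and 10872 (0.06, 0.02 to 0.10).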
